A study of Mus musculus with 4 samples.

Results

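Ccl2, Ccl7 and Ccl12 encode secreted chemokines of the CC family that attract monocytes, and Ccr2 encodes the receptor through which monocytes answer them. These 4 of the 32285 genes in the count tables were taken by symbol, and each symbol named 1 row. They were chosen by their UMI counts in earlier results of the same data, in which the ligands were higher after cardiac arrest (CA), so their levels and ratios are given here as a description and carry no test.

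CCL2 binds CCR2, a receptor coupled to G proteins, and draws classical monocytes out of the bone marrow and into injured tissue. CCL7 and the mouse protein CCL12 act on the same receptor, and CCL7 also binds other CC receptors. Brain macrophages, astrocytes and vessel cells are known sources of these ligands after injury, transcribed under signals of tumour necrosis factor, interleukin-1 and Toll-like receptors. Resting microglia, the resident macrophages of the brain, are known for Cx3cr1 and little Ccr2, while blood monocytes of the classical kind carry much Ccr2.

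The counts come from wild-type C57Bl/6 mice sampled on day 3 after the procedure. CA mice had their hearts stopped with potassium chloride and were resuscitated, and sham mice had the surgery alone. Young mice were 3 to 6 months old and aged mice 18 to 20 months old. Brains were perfused through the heart, dissociated mechanically and enriched on Percoll, and cells with the leukocyte surface protein CD45 were sorted into droplets for 3′ single-cell sequencing. Sham and CA at each age made 4 groups (young sham, young CA, aged sham, aged CA), each a single library pooled from 3 mice whose cells cannot be told apart, so no value has a replicate spread. Every interval is a 95% interval that covers counting error only, and the sources used here do not give the sex of the mice.

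After filtering, 8730 cells remained from young sham, 10131 from young CA, 7538 from aged sham and 5888 from aged CA. Their median depths were 6368, 9857, 3130 and 10432.5 unique molecular identifiers (UMIs, each a counted RNA molecule), with more depth after CA than after sham at both ages. Aged sham stood apart from the other libraries: haemoglobin transcripts made up 30.5 CPM (counts in 1000000 UMIs) of its microglia against 1.13 to 2.90 CPM elsewhere, and 13.7% of its cells passed no gate against 2.33% to 7.07%. Immediate early genes, which dissociation can induce, summed to 864 CPM (young sham), 919 CPM (young CA), 1560 CPM (aged sham) and 1408 CPM (aged CA) in microglia. Any pair of libraries shared 15 to 32 barcodes, at most 0.416% of the smaller library.

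Cells were assigned to classes by lists of 8 marker genes, none of them Ccl2, Ccl7, Ccl12 or Ccr2. Cells in which no list led clearly were left ungated. Listing the young libraries first and sham before CA, the gates held 8243, 9289, 5707 and 4923 microglia and 48, 34, 11 and 35 border-associated macrophages, the resident macrophages of meninges and vessel walls. They held 12, 317, 13 and 58 monocytes and 38, 24, 147 and 109 T cells in the same order. None of the 8 microglial markers was at 0 in the microglia gate, and none of the monocyte markers was at 0 in the monocyte gates of young CA and aged CA. The gates were set by these same markers, so this is no separate check of the classes. No microglial marker was at 0 in the T cell or neuron gates either. Ptprc, which encodes CD45, stood at 406 to 500 CPM in microglia and at 7.30 to 28.0 CPM in the 106 to 300 cells per library that passed the neuron gate. Levels are the UMIs of a gene in CPM of all UMIs of the class, and a class with fewer than 20 cells is given as cells and UMIs only.

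The 3 ligand genes lie close together on chromosome 11. On GRCm38, Ccl2 (ENSMUSG00000035385) spans chr11:82035571-82037453, Ccl7 (ENSMUSG00000035373) spans chr11:82045712-82047525 and Ccl12 (ENSMUSG00000035352) spans chr11:82101845-82103400, all on the plus strand in GENCODE M21. From the start of Ccl2 to the end of Ccl12 there are 67830 bases, with Ccl11 between Ccl7 and Ccl12. Ccr2 (ENSMUSG00000049103) lies elsewhere, at chr9:124101950-124113557 on the plus strand. The ligands' transcripts have 3 exons each and code for 148, 97 and 104 residues in Ccl2, Ccl7 and Ccl12, against 373 in Ccr2. The stretches below are exonic and coding, run 5′ to 3′ and are shown because they hold the 2 adjacent cysteine codons (capitals) that give the CC family its name. Counted from the A of the start codon, they cover bases 73 to 132 of Ccl2 and 70 to 129 of Ccl7 and Ccl12.
Ccl2: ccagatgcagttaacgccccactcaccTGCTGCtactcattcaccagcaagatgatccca
Ccl7: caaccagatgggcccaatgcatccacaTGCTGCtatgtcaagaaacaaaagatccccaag
Ccl12: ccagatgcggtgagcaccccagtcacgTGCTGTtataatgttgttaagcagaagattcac
Over aligned coding bases, Ccl2 was 72.1% identical to Ccl7 (287 bases) and 69.7% to Ccl12 (310 bases), and Ccl7 was 69.1% identical to Ccl12 (288 bases). The longest run of bases shared exactly by any pair of their transcripts was 23, so the 3 genes are similar without long identical stretches. Ccl2 overlaps Gm17268, a gene model on the other strand. Gm17268 held 796, 5820, 2607 and 12519 UMIs in young sham and CA and then aged sham and CA, beside 648, 13335, 949 and 36002 of Ccl2. The sources used here do not state whether the counting used strand, so how reads were divided between Ccl2 and its antisense neighbour is uncertain.

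The 250 bases before the start of Ccl12 (GRCm38.p6, RefSeq, plus strand, chr11:82101595-82101844) are shown because Ccl12 supplied most ligand transcripts in every library. Capitals mark 2 motifs that a search of both strands found, neither overlapping the other.
Ccl12 upstream: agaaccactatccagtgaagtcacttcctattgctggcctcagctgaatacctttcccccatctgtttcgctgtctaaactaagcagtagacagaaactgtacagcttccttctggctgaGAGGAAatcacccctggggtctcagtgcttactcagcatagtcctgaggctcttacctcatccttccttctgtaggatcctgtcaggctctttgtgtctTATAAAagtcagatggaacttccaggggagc
TATAAA, the TATA box that places the start of transcription, begins 31 bases before the start and occurs in 12.4% of 32851 promoter windows of the mouse. GAGGAA, a core bound by the myeloid factor PU.1, begins 130 bases before the start and occurs in 23.3% of windows. The search also covered NF-kB (by its 10-letter consensus), AP-1 (TGANTCA), ISRE (by its name), C/EBP (TTNNGNAA) and GC box (GGGCGG) motifs, which 7.25%, 6.75%, 2.98%, 36.9% and 32.7% of windows hold. None of those letters stood in this window of Ccl12. A match describes letters and not binding.

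Ccl2, the ligand named for monocyte attraction, was higher in CA than in sham microglia at both ages. It stood at 8.34 CPM in young sham (537 UMIs), 105 CPM in young CA (10640 UMIs), 25.0 CPM in aged sham (832 UMIs) and 563 CPM in aged CA (31225 UMIs). Both sham libraries were low and aged CA was the highest. The level in young CA was 12.6 times that in young sham (interval 11.6 to 13.8), and the level in aged CA was 22.5 times that in aged sham (21.0 to 24.1). A single cell held 138 of the 537 UMIs of Ccl2 in young sham, and without it the level there was 6.20 CPM. Monocyte markers in the microglia gate reached 11.6 CPM (young sham), 236 CPM (young CA), 28.8 CPM (aged sham) and 68.6 CPM (aged CA) in sum, with none of the 8 at 0, and microglial markers summed to 18574, 12189, 15543 and 7775 CPM in the same order. Their part in the ligand levels was not tested.

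Ccl7, which acts beside Ccl2 on the same receptor, was the scarcest of the 3 ligands in microglia and had the widest spread between libraries. Its level was 0.746 CPM in young sham (48 UMIs), 8.70 CPM in young CA (879 UMIs), 2.23 CPM in aged sham (74 UMIs) and 114 CPM in aged CA (6340 UMIs). Aged CA thus stood far above the other libraries. The ratio of CA to sham was 11.7 in young (8.73 to 16.0) and 51.3 in aged (40.8 to 65.5). The sham levels depended on the gate: with classes taken from graph clusters, where no cluster was mostly border-associated macrophages, microglia held 2.74 CPM (young sham) and 6.25 CPM (aged sham). The log2 ratios then became 1.67 in place of 3.55 in young and 4.18 in place of 5.68 in aged.

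Ccl12, a CCR2 ligand of the mouse, was the most counted ligand in microglia. It reached 71.7 CPM in young sham (4618 UMIs), 504 CPM in young CA (50861 UMIs), 147 CPM in aged sham (4886 UMIs) and 3134 CPM in aged CA (173877 UMIs). The order of the libraries was the same as for Ccl2 and Ccl7. The ratio of CA to sham was 7.02 in young (6.81 to 7.24) and 21.3 in aged (20.7 to 21.9).

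Ccr2 was scarce in the microglia gate and was lower after CA. Its level was 11.9 CPM in young sham (765 UMIs), 7.31 CPM in young CA (738 UMIs), 12.1 CPM in aged sham (402 UMIs) and 1.14 CPM in aged CA (63 UMIs). It was 1.63 times lower in young CA than in young sham (1.47 to 1.80) and 10.7 times lower in aged CA than in aged sham (8.15 to 14.1). The log2 ratio in young moved from -0.70 to -0.04 with classes from graph clusters and to -1.35 without the barcodes of the highest doublet scores, and that in aged moved from -3.41 to -1.68 with graph clusters.

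**Figure D1:**
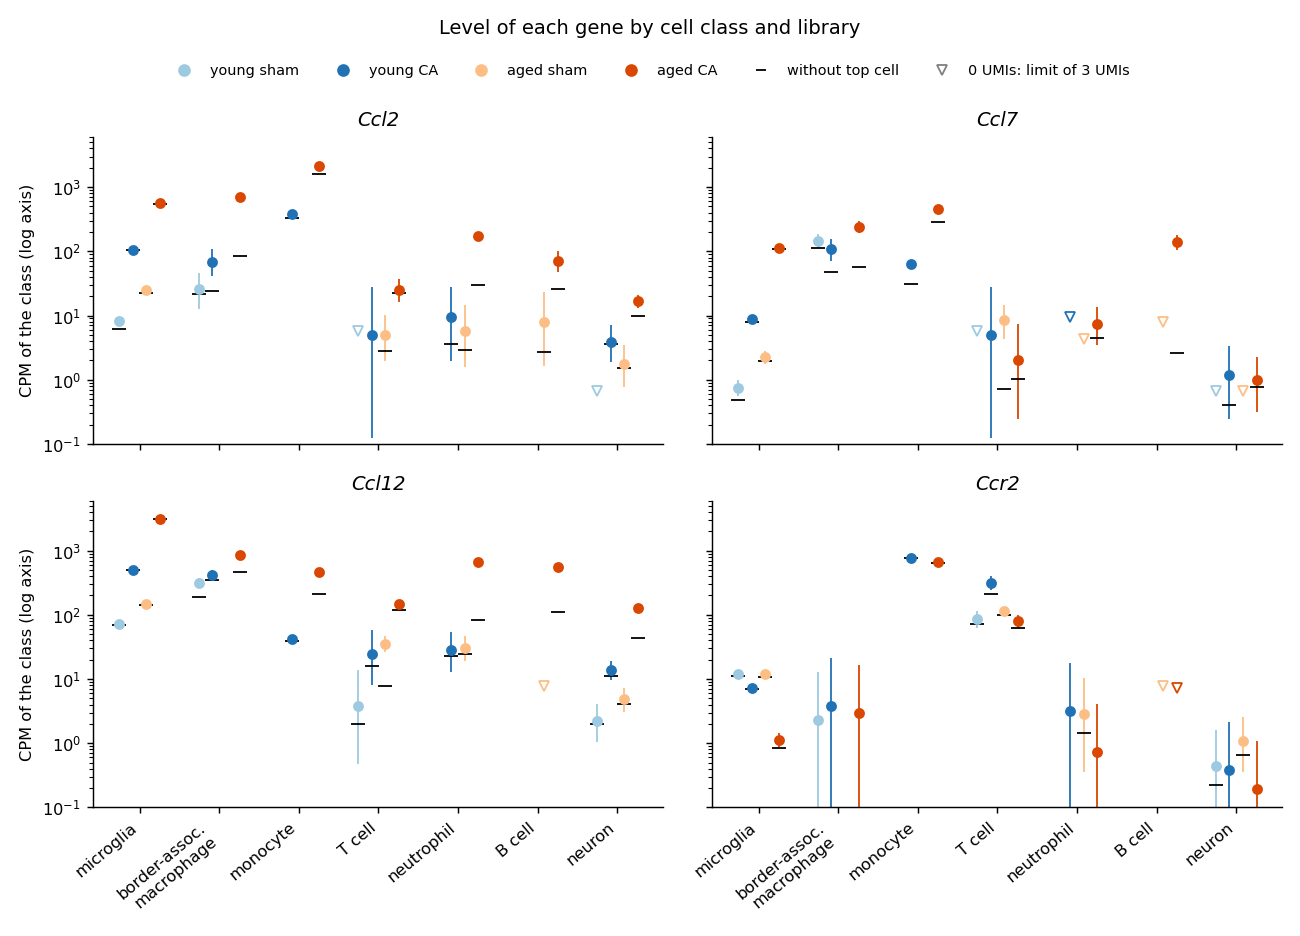
Level of Ccl2, Ccl7, Ccl12 and Ccr2 (CPM of the class, log axis) in each cell class and library with at least 20 cells. Points are class sums with 95% Poisson intervals, short bars give the level without the cell holding most UMIs of the gene, and open triangles mark 0 UMIs at the limit of 3 UMIs. In microglia the ligands run from young sham, the lowest, through aged sham and young CA to aged CA, while Ccr2 is high in monocytes and next highest in T cells.

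A gene entered the count of changed genes with at least 10 UMIs over both libraries and at least 20 CPM in 1 of them. In young microglia, 2 of the 4 members passed (Ccl2 and Ccl12) and both were at least 2-fold higher in CA, against 6.12% of 7511 genes, while 2.45% were at least 2-fold lower. In aged microglia, Ccl2, Ccl7 and Ccl12 passed and all 3 were at least 2-fold higher in CA, against 6.05% of 7734 genes, while 7.91% were at least 2-fold lower. Because the genes were chosen for this contrast, nothing is read from these shares. By size of the ratio, Ccl2 was gene 50 and Ccl12 gene 85 in young, and Ccl7, Ccl2 and Ccl12 were genes 6, 16 and 18 in aged.

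The ligands were also higher in aged than in young libraries. Aged sham microglia held 3.00 times the Ccl2 (2.69 to 3.35), 2.99 times the Ccl7 (2.05 to 4.39) and 2.05 times the Ccl12 (1.97 to 2.13) of young sham microglia. Ccl2 and Ccl12 passed the filter there, and both were at least 2-fold higher against 2.09% of 7328 genes, with 0.109% at least 2-fold lower. Aged CA microglia held 5.34 times the Ccl2 (5.23 to 5.46), 13.1 times the Ccl7 (12.2 to 14.1) and 6.22 times the Ccl12 (6.16 to 6.29) of young CA microglia, with 1.68% of 7484 genes at least 2-fold higher and 2.62% lower. Ccr2 in the microglia gate was 1.02 times as high in aged sham as in young sham, with an interval of 0.8999 to 1.15 that includes 1, and 6.44 times lower in aged CA than in young CA (4.97 to 8.46). Of 8 immediate early genes, 8 were higher in aged sham than in young sham and 6 at least 2-fold, with a median log2 ratio of 1.30 against -0.07 over all genes. Between CA and sham, 6 of the 8 were above and 2 below a ratio of 1 in young, with 2 at least 2-fold higher, and in aged 3 were above and 5 below, with 2 at least 2-fold higher and 1 lower. In aged CA over young CA, 7 of the 7 that passed were above and 3 at least 2-fold higher, with a median of 0.95 against 0.02 over all genes. Their part in the differences of the ligands was not tested.

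The CA response was larger in aged than in young microglia by level for each ligand, while by the share of positive cells it was larger for Ccl7 and not for Ccl2. The aged minus young difference of the log2 ratios was 0.83 for Ccl2 (0.67 to 0.99), 2.14 for Ccl7 (1.60 to 2.67) and 1.60 for Ccl12 (1.54 to 1.66). For Ccl2 it was 0.56 without the cell of most UMIs in each library. When each cell was thinned to 1000 UMIs, the share of microglia with a UMI of Ccl2 was 0.469%, 5.33%, 1.99% and 16.0% in young sham and CA and then aged sham and CA. The CA to sham ratio of those shares was 11.4 in young and 8.06 in aged, so for Ccl2 the share ratio was not larger in aged mice. The thinned shares of Ccl12 were 4.81%, 20.1%, 10.3% and 44.2%, which gave nearly equal ratios of 4.18 and 4.27. Those of Ccl7 were 0.0441%, 0.465%, 0.231% and 3.98%, with ratios of 10.5 and 17.2. These differences were not tested, since each group was a single library.

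Unthinned, 2.15%, 22.5%, 6.43% and 42.5% of microglia had a UMI of Ccl2 and 24.0%, 57.1%, 28.8% and 85.3% had a UMI of Ccl12, at median depths of 6134, 9636, 3504 and 10696 UMIs. T cells, which are not known as a main source of these ligands, give the background for these shares. Unthinned, 17.4% of T cells in aged CA had Ccl2 and 58.7% had Ccl12, and 18.9% and 58.0% of the deeper neurons did. These T cells had a median of 8882 UMIs and the neurons 28125 UMIs. After thinning, 2.92% of the T cells had Ccl2, 0.162% had Ccl7 and 12.6% had Ccl12. In young CA, T cells had a median of 8508 UMIs and the thinned shares were 0.330%, 0.328% and 2.13%. Microglia exceeded these shares for Ccl2 and Ccl12 in both CA libraries and for Ccl7 in aged CA. In young CA the Ccl7 share of 0.465% was close to the 0.328% of T cells, which rests on 1 T cell.

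The ligand differences had the same direction at every depth. When microglia were split into 5 depth ranges, from 500 to 2000 UMIs up to 20000 and more, each ligand was higher in CA than in sham in all 5 ranges at both ages. The ratios for Ccl2 ran from 3.02 to 34.0 in young and from 14.9 to 52.6 in aged, and those for Ccl12 from 3.02 to 6.47 and from 8.29 to 36.4. Those for Ccl7 ran from 13.7 to 66.6 in aged. In young they reached 35.1, and the smallest came from 4 UMIs in CA against 2 in sham (5.69 against 2.90 CPM) in the shallowest range. In 3 of the 5 young ranges the sham side held 2 UMIs of Ccl7.

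Ligand transcripts were concentrated in a small part of the microglia. In aged CA the top 1% of microglia held 35.2% of the UMIs of Ccl2, 58.6% of Ccl7 and 23.7% of Ccl12. The strongest Ccl12 cell there had 2795 UMIs of it, and 452 cells (9.18%) had at least 100 UMIs against 64 cells (0.689%) in young CA, 2 in young sham and 1 in aged sham. For Ccl2, 67 cells reached 100 UMIs in aged CA and 6 in young CA. In young sham 6 cells held 50% of all Ccl2 UMIs of microglia, and 2 cells held 50% of the Ccl7 UMIs, so these young sham levels rest on few cells. Cells with more than 1000 CPM of Ccl12 made up 0.922%, 9.36%, 3.35% and 30.2% of microglia in young sham and CA and then aged sham and CA. For Ccl2 the same limit gave 0.121%, 1.65%, 0.263% and 9.45%.

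**Figure D2:**
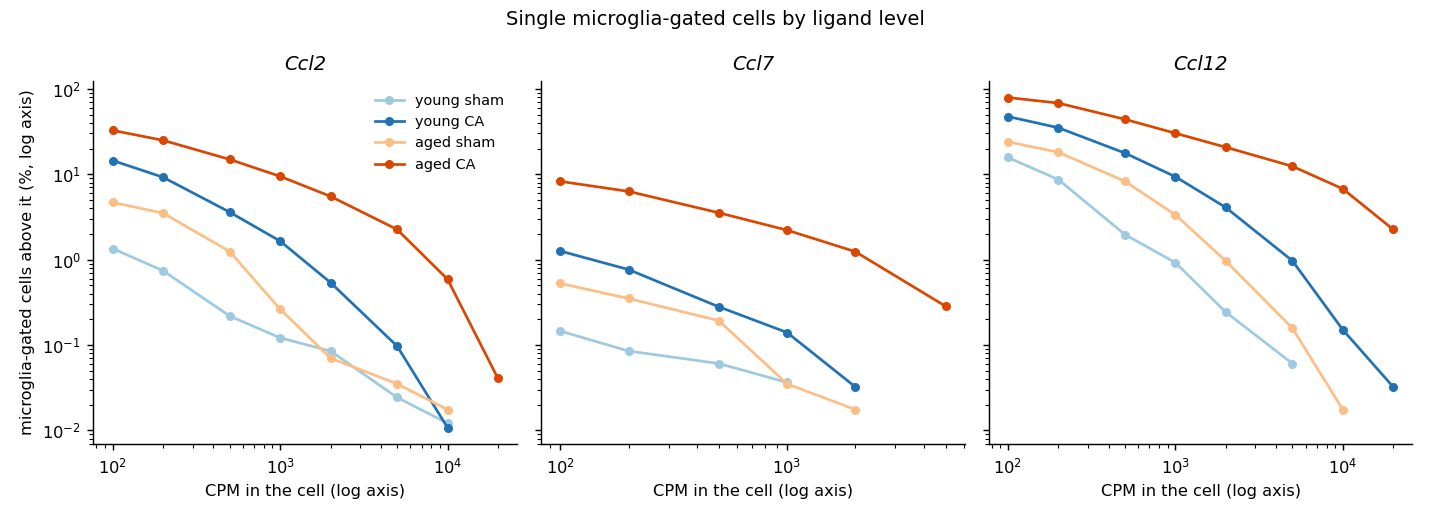
Share of microglia-gated cells (%, log axis) above a given CPM of Ccl2, Ccl7 and Ccl12 in the single cell (log axis), one line per library, ending where no cell lies above. Aged CA has the highest share at every plotted level, and 9.45% of its microglia exceed 1000 CPM of Ccl2 against 1.65% in young CA.

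Ccl7 and Ccl12 were more frequent in microglia with Ccl2 than in microglia without it in all 4 libraries. Among microglia of 5000 to 20000 UMIs in aged CA, 93.5% of the 1399 cells with Ccl2 also had Ccl12, against 84.6% of the 1891 cells without Ccl2. For Ccl7 the shares were 20.1% and 4.60%, and its level was 205 CPM in Ccl2-positive and 5.29 CPM in Ccl2-negative cells. In young CA, 82.0% of 1250 Ccl2-positive and 58.4% of 4108 Ccl2-negative cells had Ccl12, and 7.28% and 0.876% had Ccl7. Positive cells were somewhat deeper, with medians of 12570 against 11142 UMIs in aged CA and 12897.5 against 10774 in young CA. Cells with all 3 ligands made up 0.0903% of such microglia in young sham and 1.55% in young CA, against 0.582% in aged sham and 8.42% in aged CA. Cells with none of them made up 64.6%, 31.7%, 51.7% and 8.42%. Cells in which Ccl12 alone was detected made up 32.5%, 44.3%, 37.3% and 46.4%. These shares are unthinned. With or without the other ligands, Ccl12 was detected in 2908 of the 3290 such microglia of aged CA. It was also detected in 58.7% of T cells of any depth there, so detection of Ccl12 alone is not read as expression.

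Ccl2-positive microglia of aged CA also differed in other chemokine and cytokine genes while keeping their microglial markers. Ccl4 and Ccl3, which encode inflammatory CC chemokines, stood at 2368 and 1639 CPM in Ccl2-positive against 209 and 207.5 CPM in Ccl2-negative cells. Il1b, the interleukin-1β gene, was 5.96 times as high (5.28 to 6.74) and Tnf, the tumour necrosis factor gene, 3.06 times as high (2.93 to 3.19). P2ry12 and Tmem119, which mark microglia, were at 0.769 and 0.844 of the level in Ccl2-negative cells. In young CA the ratios were 5.99 for Ccl4, 4.22 for Ccl3, 4.53 for Il1b and 2.61 for Tnf. Both sham libraries had the same direction. In young sham the ratios were 41.04 for Ccl4, 26.69 for Ccl3, 14.14 for Il1b and 3.115 for Tnf, from 119 Ccl2-positive cells. In aged sham they were 6.17, 6.703, 10.18 and 2.932 in the same order, from 217 Ccl2-positive cells. Higher levels of these genes in Ccl2-positive microglia were thus not limited to CA.

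Monocyte-gated cells carried the ligands in other proportions than microglia. In young CA the 317 monocytes held 375 CPM of Ccl2, 63.1 CPM of Ccl7 and 41.4 CPM of Ccl12. In aged CA the 58 monocytes held 2169, 450 and 458 CPM. Their Ccl2 was 3.56 times that of microglia in young CA (3.40 to 3.72) and 3.85 times in aged CA (3.72 to 3.99), and their Ccl7 was 7.25 and 3.94 times as high. Their Ccl12 was 12.2 times lower than in microglia in young CA and 6.85 times lower in aged CA. With classes from graph clusters the monocyte level of Ccl12 in young CA was 139 CPM in place of 41.4 CPM. In young CA it was 1.67 times the level in T cells, with an interval of 0.705 to 5.18 that includes 1. In aged CA it was 3.15 times the T cell level (2.63 to 3.79), or 214 against 118 CPM without the cell of most UMIs in each class. With every cell counted, neutrophils and B cells of aged CA held more Ccl12 than the monocytes, at 660 CPM (84 cells) and 553 CPM (44 cells). Neurons of aged CA held less, at 129 CPM, and so did neutrophils of young CA, at 28.25 CPM (9 UMIs). The monocyte level of Ccl12 in aged CA thus did not stand above all other classes.

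Single cells weigh heavily in the monocyte levels. Without the cell of most UMIs, Ccl2 was 328 CPM in young CA and 1627 CPM in aged CA, Ccl7 was 30.6 and 282 CPM, and Ccl12 was 38.5 and 214 CPM. A single cell held 198 of 383 Ccl7 UMIs in young CA, and another held 391 of 715 Ccl12 UMIs in aged CA. The aged CA level was 5.79 times the young CA level for Ccl2 (5.48 to 6.10), 7.13 times for Ccl7 (6.29 to 8.10) and 11.1 times for Ccl12 (9.57 to 12.8). Of 6430 genes tested there, 5.15% were at least 2-fold lower and 9.74% at least 2-fold higher in young than in aged CA monocytes. As log2 ratios of young to aged these are -2.53, -2.83 and -3.47, and that of Ccl12 was -2.48 without the top cells and -1.57 with classes from graph clusters. Neutrophil markers summed to 4923 CPM in the aged CA monocyte gate against 85.7 CPM in young CA, with 3 of 8 and 1 of 8 of them at 0, and their part in these values was not tested. The sham gates held too few monocytes for a level: 12 cells with 7 UMIs of Ccl2 in young sham and 13 cells with 7 UMIs in aged sham, with 0 UMIs of Ccl7 in both.

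Border-associated macrophages held Ccl7 and Ccl12 already in sham brains. The 48 cells of young sham held 25.7 CPM of Ccl2 (11 UMIs), 145 CPM of Ccl7 (62 UMIs) and 316 CPM of Ccl12 (135 UMIs), and the 34 cells of young CA held 69.2, 108 and 419 CPM. The ratio of CA to sham was 2.69 for Ccl2 (1.20 to 6.30) and 1.33 for Ccl12 (1.02 to 1.72). For Ccl7 it was 0.742, and its interval of 0.457 to 1.18 includes 1. In young CA 1 cell held 12 of the 18 Ccl2 UMIs, and without the cell of most UMIs in each library Ccl2 was 21.5 CPM in sham and 23.9 CPM in CA, so that difference rests on a single cell. Ccl12 was then 189 CPM in sham and 350.4 CPM in CA. In young sham their Ccl7 was 195 times that of microglia (131 to 290), in young CA 12.4 times and in aged CA 2.11 times. Without the cell of most UMIs in each class, Ccl7 was 47.5 CPM against 8.06 CPM in microglia of young CA. In aged CA the direction turned, with 57.9 CPM in border-associated macrophages against 108 CPM in microglia. The 11 cells of aged sham held 14 UMIs of Ccl2, 66 of Ccl7 and 89 of Ccl12. In aged CA the 35 cells held 708, 241 and 846 CPM, but without the cell of most UMIs of each gene these became 85.3, 57.9 and 467 CPM.

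The mix of ligands differed between microglia and monocytes. The 3 genes were counted from their 3′ ends without scaling by length, so the mix is one of transcripts counted. Ccl12 made up 81.5% to 88.8% of the ligand UMIs of microglia in the 4 libraries, Ccl2 10.3% to 17.1% and Ccl7 0.923% to 3.00%. In monocytes Ccl2 led with 78.2% in young CA (76.7 to 79.7) and 70.5% in aged CA (69.2 to 71.8). In border-associated macrophages of young sham Ccl7 made up 29.8% (23.7 to 36.5) and Ccl12 64.9%. After CA their Ccl7 share was 18.1% in young and 13.4% in aged, beside 13.2% and 14.6% in monocytes, and their Ccl12 share was 70.3% and 47.1%.

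**Figure D3:**
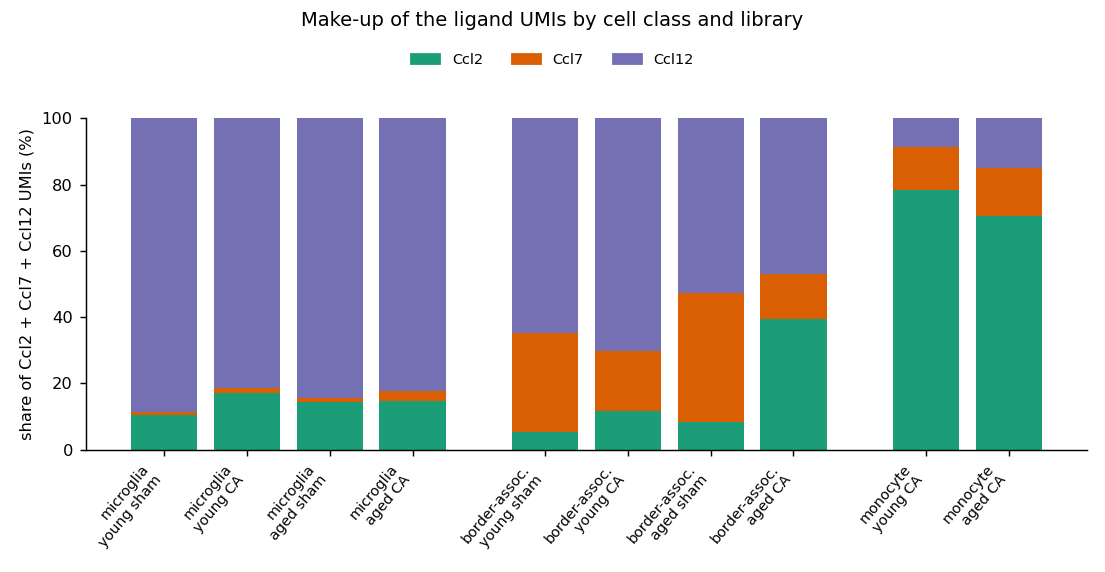
Share (%) of Ccl2, Ccl7 and Ccl12 in the summed UMIs of the 3 ligands, for microglia, border-associated macrophages and monocytes in each library. The border-associated bar of aged sham rests on 11 cells and 169 UMIs, and that of aged CA includes a single cell with 213 of its 241 Ccl2 UMIs. Ccl12 fills 81.5% to 88.8% of every microglial bar and Ccl2 most of both monocyte bars.

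Over all kept cells, microglia, which made up 75.7% to 94.4% of the cells, held most UMIs of Ccl2 and Ccl12. They held 82.9%, 79.8%, 87.7% and 86.7% of the Ccl2 UMIs in young sham and CA and then aged sham and CA, and 93.8%, 98.1%, 82.9% and 97.3% of the Ccl12 UMIs. Monocytes, 3.13% of young CA cells and 0.985% of aged CA cells, held 17.1% and 9.41% of the Ccl2 UMIs there. Ccl7 changed its main holders between sham and CA. In young sham, border-associated macrophages held 33.2% of it, ungated cells 41.2% and microglia 25.7%. A single ungated cell there held 40 of the 77 ungated Ccl7 UMIs. By contrast, microglia held 65.3% in young CA and 86.2% in aged CA, and monocytes 28.4% and 9.56%. Such a share mixes the number of cells of a class with its level. For Ccl7 in young sham and young CA, border-associated macrophages were 48 cells at 145 CPM and 34 cells at 108 CPM. Microglia were 8243 cells at 0.746 CPM and 9289 cells at 8.70 CPM.

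**Figure D4:**
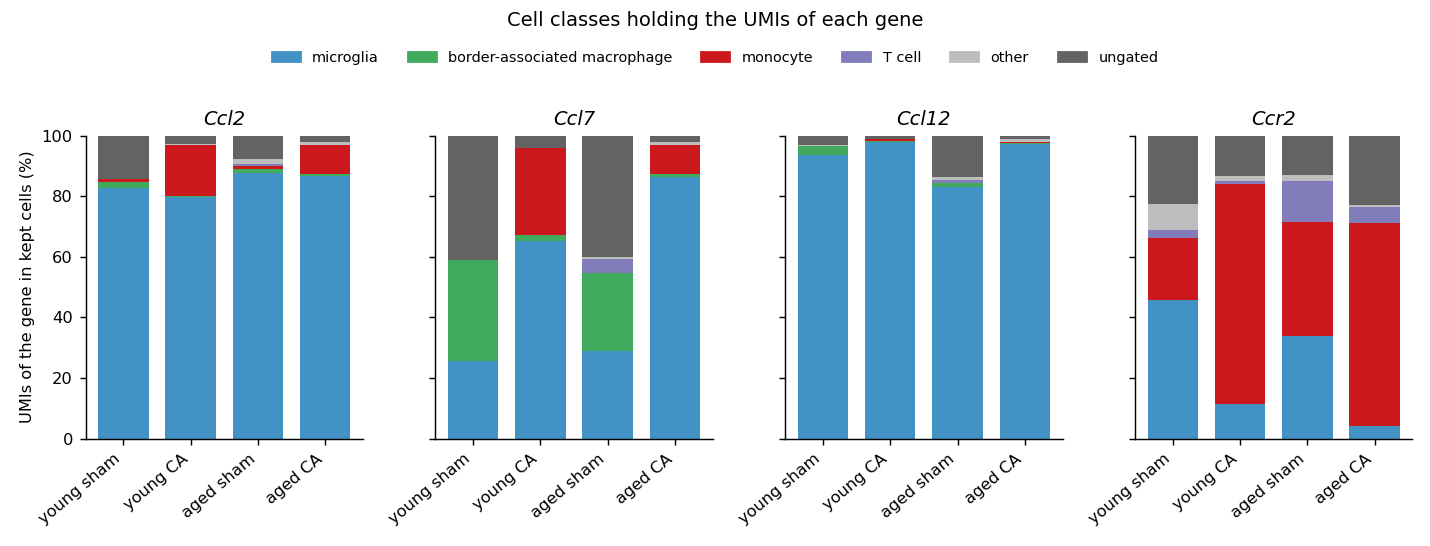
Share (%) of the UMIs of each gene in all kept cells that lay in each cell class, by library. Microglia fill most of the Ccl2 and Ccl12 bars, border-associated macrophages and ungated cells take a large part of Ccl7 in both shams, and monocytes hold 72.6% of Ccr2 in young CA and 67.1% in aged CA.

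Ccr2, the receptor, was highest in monocytes and next highest in T cells among gated classes with at least 20 cells. In monocytes it stood at 781 CPM in young CA (4738 UMIs, 89.6% of cells) and 668 CPM in aged CA (1044 UMIs, 91.4% of cells). The 12 monocytes of young sham held 342 UMIs and the 13 of aged sham 444 UMIs. The aged CA level was 0.856 of the young CA level (0.80 to 0.916). Monocytes held 107 times the Ccr2 of the microglia gate in young CA (98.8 to 116) and 589 times in aged CA (456 to 772). These ratios depend on the gate: Ccr2 in microglia was 17.1 CPM in young CA and 4.50 CPM in aged CA with graph clusters, and 3.53 CPM and 0.795 CPM with the stricter gate. By contrast with the ligands, Ccr2 UMIs were spread over the class. The top 1% of monocytes held 4.07% of them in young CA. In aged CA the 1 cell with most, out of 58, held 64 of the 1044 UMIs (6.13%).

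Ccl2 was detected in part of the Ccr2-positive monocytes after CA. Of monocytes with at least 5000 UMIs, 282 in young CA and 53 in aged CA had a UMI of Ccr2. Ccl2 was found in 50% of these cells in young CA (44.0 to 56.0) and in 71.7% in aged CA (57.7 to 83.2). Monocytes without a Ccr2 UMI had Ccl2 in 54.2% of 24 cells in young CA (32.8 to 74.5) and 60% of 5 cells in aged CA (14.7 to 94.7). These intervals overlap those of the Ccr2-positive cells, and at these numbers a difference was not detectable. The shares are unthinned, at median depths of 19318 UMIs in monocytes of young CA and 26286.5 UMIs in aged CA. Thinned to 1000 UMIs, 17.3% of all monocytes in young CA and 38.4% in aged CA had Ccl2, against 0.330% and 2.92% of T cells.

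T cells held 86.9 CPM of Ccr2 in young sham (45 UMIs), 317 CPM in young CA (64 UMIs), 113 CPM in aged sham (161 UMIs) and 79.8 CPM in aged CA (79 UMIs). The ratio of CA to sham was 3.65 in young (2.46 to 5.47) and 0.708 in aged (0.534 to 0.933), from 24 to 147 cells. In young CA 1 T cell held 23 of the 64 UMIs, and without it the level was 212 CPM. With classes from graph clusters the level was 185 CPM in young sham and 228.5 CPM in young CA, and with the stricter gate it was 46.2 CPM in aged CA. The cluster taken as T cells was mixed, with 73 cells in young sham and 49 in young CA. Over all libraries, T cells made up 53.2% of its gated cells. Neurons, which should lack the receptor, held 0.196 to 1.10 CPM, and the B cells of aged sham and aged CA held 0 UMIs in 41 and 44 cells. Ccr2 also occurred in classes too small for a level, with 97 UMIs in 4 dendritic cells and 43 UMIs in 7 NK cells of young sham and 66 UMIs in 14 dendritic cells and 41 UMIs in 11 NK cells of young CA.

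In the microglia gate of the young libraries, most Ccr2 lay in a small set of cells with lower microglial markers. Of its cells, 34 in young sham and 36 in young CA, against 14 in aged sham and 1 in aged CA had at least 5 UMIs of Ccr2, and they held 68.1%, 70.6%, 46.8% and 26.98% of that gate's Ccr2. In young CA their microglial markers summed to 5694 CPM against 12238 CPM in microglia without Ccr2, and their monocyte markers to 2341 CPM against 215 CPM. In young sham the values were 4992 against 18670 CPM and 409 against 8.04 CPM. The young sham cells also held more T cell markers (261 against 4.86 CPM), NK cell markers (29.2 against 3.70 CPM) and border-associated macrophage markers (622 against 287 CPM). The monocyte gate of young CA held 10084 CPM of monocyte and 864 CPM of microglial markers, so these cells lay between both gates there. The part of the marker difference in the Ccr2 level was not tested.

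Which cells bore Ccr2 differed between sham and CA. A UMI of Ccr2 was found in 273 cells of young sham and 599 of young CA, against 287 of aged sham and 153 of aged CA. Monocytes made up 4.396%, 47.4%, 4.18% and 34.6% of them. Among cells with at least 5 UMIs the monocyte share was 15.8% of 76, 69.2% of 328, 23.8% of 42 and 62.5% of 64. Over all kept cells Ccr2 was 23.1, 57.4, 26.96 and 22.9 CPM in the same order. It was 2.48 times as high in young CA as in young sham (2.35 to 2.62), and in aged CA it was 0.848 of the aged sham level (0.785 to 0.915).

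The other chemokine genes of chromosome 11 divided. Of 8 fixed for this list, 5 passed the filter in microglia at each age, and 3 of them, Ccl3, Ccl4 and Ccl5, were at least 2-fold higher in CA at both ages. The list's median log2 ratio was 1.83 in young against -0.06 over all genes, and 1.23 in aged against 0.06. Ccl3 went from 26.9 to 108 CPM in young and from 72.2 to 982 CPM in aged. Ccl4 went from 52.2 to 186 CPM and from 150.5 to 1306 CPM. Ccl5, a chemokine for T cells and monocytes, had a log2 ratio of 2.52 in young and 1.23 in aged. T cell markers in the microglia gate summed to 38.9 CPM in aged sham against 1.89 to 7.14 CPM in the other libraries, with none of the 8 at 0, and their part in the Ccl5 ratio was not tested. Ccl6 had a ratio of -0.05 in young and -1.06 in aged, and Ccl9 of 0.01 and -0.62, so not every CC chemokine of microglia was higher. Ccl8 and Ccl11, the genes nearest to Ccl12, did not pass, with Ccl8 at no more than 2.05 CPM in these comparisons.

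Among 23 genes of the inducing signals, 20 passed in young microglia, with 13 above and 7 below a ratio of 1. In aged microglia 21 passed, with 16 above and 5 below. Their medians were 0.13 in young and 0.47 in aged on the log2 scale. Tnf, whose product induces the ligands, went from 5.20 to 39.8 CPM in young and from 33.9 to 273 CPM in aged, with log2 ratios of 2.93 and 3.01. Nfkbia, the inhibitor that NF-kB itself induces, had ratios of 1.25 and 2.53, and Tlr2, a Toll-like receptor, of 1.07 and 1.78. Il1b passed in aged only, at 11.1 and 54.4 CPM, and Tnfaip3, which restrains NF-kB signalling, had 0.07 in young and 1.20 in aged. Rela, which encodes a subunit of NF-kB, had -0.33 and 0.07.

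Genes of other receptors, signalling and messenger decay differed in both directions. Cx3cr1, the fractalkine receptor of microglia, went from 4223 to 2061 CPM in young and from 3278 to 1534 CPM in aged. Ccr1, which Ccl7 also binds, was 5.56 times as high in young CA, from 4.75 to 26.4 CPM, and Ccrl2, which binds chemokines without signalling, was 2.45 times as high in aged CA. All 11 genes of receptor signalling passed, with 5 above and 6 below at each age: in young none was 2-fold different, and in aged Grk6 was higher (1.05) and Rgs2 lower (-1.05). Of 7 genes that govern the decay of chemokine messengers, 6 passed, with 3 above and 3 below in young and 5 above and 1 below in aged, and Zc3h12a, an enzyme that cuts such messengers, was the only 1 past 2-fold, in aged (1.07). Of 9 genes of monocyte growth and adhesion 4 passed, 1 above and 3 below at each age, with Csf1, a growth factor for macrophages, higher in young (2.28) and Selplg, a selectin ligand, lower in aged (-1.46). The median over all genes was -0.06 in young and 0.06 in aged.

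**Figure D5:**
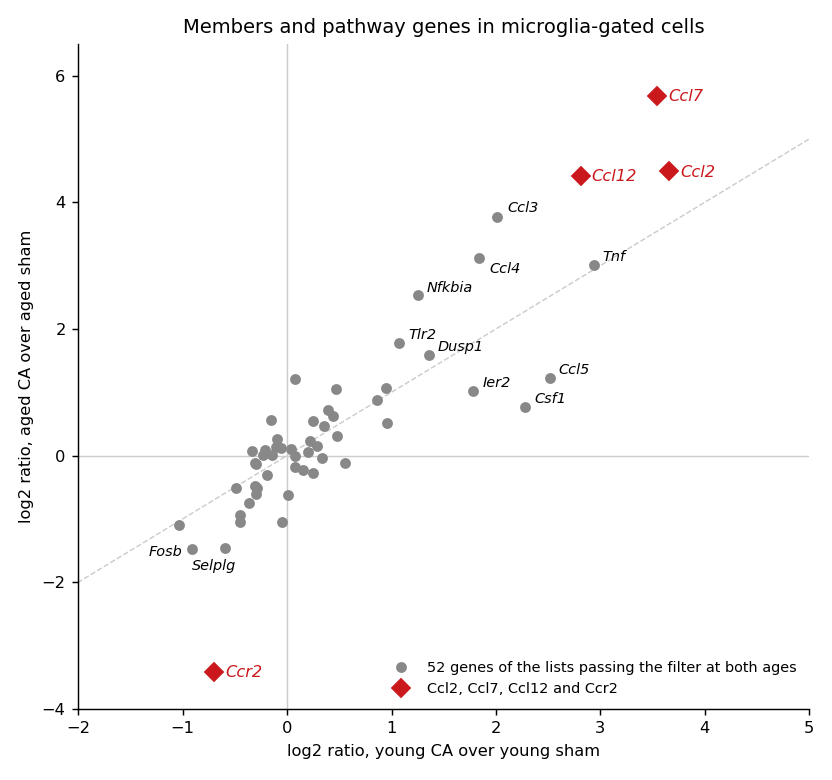
Log2 ratio of CA to sham in young (horizontal axis) and aged (vertical axis) microglia-gated cells for the 4 genes (diamonds) and 52 genes of the fixed lists that passed the filter at both ages (points), with a dashed line where both ratios are equal. Ccl2, Ccl7 and Ccl12 lie above that line at 3.66 and 4.49, 3.55 and 5.68, and 2.81 and 4.41, and Ccr2 lies below 0 at both ages.

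Likeness was measured as Pearson's r of log2(CPM + 10) over the 25 sums of a class in a library with at least 20 cells, among 12928 genes. These points share libraries and depth, so r is a description. Ccl2 was most like Ccdc86 (0.86), Mmp14 (0.86), Ier3 (0.85), Ifi207 (0.84) and Tnfrsf12a (0.84), and Ccl7 came at rank 13 (0.82). Ccl7 was most like Ifi211 (0.86), Sdc4 (0.85), Ms4a4a (0.85), Ifi207 (0.85) and Msr1 (0.84), with Ccl2 at rank 8. Ccl12 was most like Gm22146 (0.89), Mt1 (0.83), Mettl6 (0.83), Nipa2 (0.82) and Fkbp5 (0.81), with Ccl2 at rank 35 (0.76) and Ccl7 at rank 85 (0.70). Ccr2 was most like S100a4 (0.94), a marker used for the monocyte gate, Ifit1bl1 (0.90), Ass1 (0.88), Cd7 (0.87) and Phf11a (0.86). Its r with the ligands was 0.31 for Ccl2, 0.23 for Ccl7 and -0.08 for Ccl12, so the pattern of the receptor over classes was unlike that of its ligands.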

How the data were processed

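RNA of CD45-sorted brain cells was counted in 4 libraries, each pooled from 3 mice. The deposited files hold raw UMI counts of genes in barcodes. Cell Ranger 7.1.0 and mm10 are named in the submitters' processing notes. The annotation, the cell calling settings and the use of strand are not given in the sources used here. Young sham totalled 72648041 UMIs, young CA 115892682, aged sham 44277472 and aged CA 70924569.

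Cells were kept from 500 UMIs and 200 genes up, if no more than 10% of their UMIs were mitochondrial. A cell took the class whose 8 markers had the highest sum of ln(1 + UMIs per 10000), with at least 3 markers detected and a sum at least 1.5 times that of the next class, and was otherwise ungated. This leaves cells without such a lead ungated, while cells that also hold markers of another class can still pass. The automatic threshold of Scrublet marked 0 barcodes in each library, so an alternative left out the highest scores at 0.8% per 1000 cells. UMIs were summed per class and library and given as CPM. Levels have exact Poisson intervals, shares Clopper-Pearson intervals and ratios conditional binomial intervals at 95%, covering counting error only. With 1 library a group no test was made. Log2 ratios added 0.5 UMI to both counts only where either count was 0. Thinned shares are the mean over cells of the exact chance of keeping a UMI of the gene at 1000 UMIs. Cells with fewer than 1000 UMIs were left out of them.

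The members and lists were chosen with earlier results of these data known, and the form of the gate was set after class sizes and member values under a first form, which counted markers, had been seen. The named genes are the 4 members, the genes of 7 lists (72 genes, all found in the tables) as counts with values for those discussed, gate markers, and the 5 genes most like each member. Coding stretches come from GENCODE M21 and the promoter from RefSeq. Python 3.11.15, numpy 2.4.6, scipy 1.17.1, scanpy 1.11.5, igraph 0.11.9, R 4.3.3 and edgeR 4.0.16 (for TMM scaling factors only) were used. The summing and ratio steps were tested on simulated data. Alternatives were other gates, graph clusters, depth and mitochondrial limits, doublet scores, TMM scaling, means over cells, thinning to 3000 UMIs, a pseudocount of 1 CPM, no low-count filter, a fold of 4 and, chosen after seeing the data, leaving out the cell with the most UMIs of the gene. Results of 2 list genes are not reported here.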

Additional observations from a re-analysis of the deposited data

Results flagged for a closer look

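Ccr2 in all kept cells had opposite directions at the 2 ages: its level in young CA was 2.48 times that of young sham, and its level in aged CA was 0.848 of that of aged sham. In T cells the same held, with ratios of 3.65 in young and 0.708 in aged. Neither difference between the ages was tested, since each group is a single library.

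Cells that passed no gate, which entered no comparison between classes, held more Ccl2 and Ccl12 after CA than in sham at both ages, and more Ccl7 in aged only. Their Ccl2 was 139.5 CPM in young CA against 71.1 CPM in young sham, where a single cell held 55 of the 93 UMIs. Without the cell of most UMIs in each library it was 117.7 CPM in young CA and 29.45 CPM in young sham. With all cells, their Ccl2 was 321.6 CPM in aged CA against 26.3 CPM in aged sham. Their Ccl7 was 63.4 CPM in aged CA against 37.6 CPM in aged sham. In young it was lower after CA, at 19.2 CPM (53 UMIs) against 58.9 CPM (77 UMIs) in sham. A single cell held 40 of the 77 UMIs in sham. Without the cell of most UMIs in each library the levels were 14.3 CPM in young CA and 28.7 CPM in young sham. Their Ccl12 was 213 CPM in young CA against 118.5 CPM in young sham. It was 801 CPM in aged CA against 295 CPM in aged sham. Their Ccr2 was 149.5 CPM in aged CA against 56.6 CPM in aged sham.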

How the results depend on the processing

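Of 96 alternative values of the 12 main results, 65 moved by less than the counting interval, 31 moved by more and 0 changed direction. Of 660 alternative values of 109 other results, 470 moved by less, 186 by more and 4 changed direction. Values here are log2 ratios of CA to sham in microglia unless named, and the cause was not tested. With classes from graph clusters Ccl2 was 3.42 in young, Ccl7 1.67 in young and 4.18 in aged, and Ccl12 2.73 in young and 4.27 in aged, with an aged minus young difference of 1.03 for Ccl2. The looser gate gave 3.51 for Ccl2 and 2.54 for Ccl7 in young and a difference of 3.01 for Ccl7. The stricter gate gave 6.08 for Ccl7 in aged and 0.40 for Ccr2 in monocytes of young over aged CA (0.22 in the report's setting). TMM scaling gave 3.82 for Ccl2 in young, 2.97 for Ccl12 in young and 4.50 in aged, and a difference of 1.53. Means over cells gave 3.26 and 4.17 for Ccl2, 2.82 and 4.91 for Ccl7 and 2.62 and 4.02 for Ccl12 in young and aged, 0.075 for Ccr2 in monocytes and a difference of 1.40 for Ccl12. Without the cell of most UMIs, chosen after seeing the data, Ccl2 was 4.06 in young and 4.62 in aged with a difference of 0.56, and Ccl7 was 4.07 in young. Ccr2 in the microglia gate of aged over young sham, 0.03 in the report's setting, was -0.11 with the looser gate, -0.28 with graph clusters, -0.040 without the highest doublet scores and -0.062 without the cell of most UMIs. Genes at least 2-fold higher numbered 2510 in young and 2539 in aged with no low-count filter, and 133 and 117 at a fold of 4, against 460 and 468.

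No paired analysis was possible because each group is 1 library. Leaving out a replicate was not possible for the same reason. No graph cluster was mostly border-associated macrophages, so that setting gives no value for them, and TMM factors were computed for microglia and monocytes only. The sham monocyte gates (12 and 13 cells) and the border-associated macrophages of aged sham (11 cells) are too few for a level, and single cells carry much of the ligand counts in the small classes.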
